A study of Mus musculus with 4 samples.

Results

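Expression of 10 immediate early genes was examined in the aorta, namely the growth factor gene Hbegf, the AP-1 subunit genes Fos, Fosb, Jun, Junb, Jund and Atf3, and the transcription regulator genes Egr1, Nr4a1 and Ier2. They were taken by name from the platform's annotation, as all probe sets that name exactly 1 of the 10 genes. This gave 12 of 22626 probe sets, with 2 each for Jun and Hbegf and 1 for each of the other 8 genes. The arrays came from aortas of female mice at 6 weeks of age that all lack apolipoprotein E (apoE-/-), so every array carries this defect and no wild type was analysed here. The 4 groups were C3H/HeJ mice (C3H below) on Western diet, C3H mice on chow, C57BL/6 mice on Western diet and C57BL/6 mice on chow. All were weaned onto chow at 3 weeks, and the Western groups ate that diet for the last 2 weeks. Each group had 1 array, made from an unstated number of animals, and no difference between 2 arrays has a replicate check.

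Immediate early genes are transcribed within minutes of a stimulus from transcription factors that already sit in the cell, without new protein synthesis, and their mRNAs are short-lived. Fos and Jun proteins pair through leucine zippers to form AP-1, Egr1 is a zinc finger protein and Nr4a1 an orphan nuclear receptor. In vessels the group is known to answer growth factors, stretch and disturbed flow. It is also known to be induced by tissue handling, and the labels do not state the interval from death to RNA extraction.

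All 6 smooth muscle markers (such as Myh11 and Acta2) were above the detection floor on every array, as the tissue label implies. That floor is a signal of 83.6, the 40th percentile of all values, and lower signals serve as bounds. Marker signals of other tissues and cell types differed between arrays. Summed signal of the 6 smooth muscle markers was 70311 on C3H Western, 42952 on C3H chow, 74149 on C57BL/6 Western and 98415 on C57BL/6 chow, and that of 6 brown fat markers was 32566, 56049, 26334 and 24288 in the same order. The 7 heart muscle markers summed to 392 and 333 on the C3H Western and chow arrays, against 11968 and 15286 on the C57BL/6 Western and chow arrays. The 5 fibroblast markers summed to 19215 and 9682 on the C3H Western and chow arrays, against 15667 and 37834 on the C57BL/6 Western and chow arrays. Markers of neutrophils and monocytes (4 of 5 on the array, 2 above the floor throughout) moved with diet, at 2115 on C3H Western and 618 on C3H chow, and at 1687 on C57BL/6 Western and 421 on C57BL/6 chow. The C3H chow array also had the highest actin 3'/5' signal ratio, 2.28 against 1.63 to 1.83 on the others. The Gapdh 3'/5' ratio was instead highest on C57BL/6 Western at 1.28, with 1.19 on C3H chow, 1.15 on C3H Western and 1.03 on C57BL/6 chow. For the C3H chow array the median hybridization control signal was 1.64 times the mean of the other arrays, against 0.77 to 0.94 on the others. Its highest correlation with another array was 0.73, against 0.76 for each of the others. The part of these differences in the results below was not tested, and a lower share of a cell type cannot be told apart from less RNA per cell. The comparison of strains on Western diet and the diet response of C57BL/6 subtract no C3H chow value, though normalization and floor drew on all 4 arrays. Marker sums differed within these comparisons too, as for heart muscle in the first and fibroblasts in the second.

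Promoter windows from 250 bases before to 50 after an annotated start were taken from RefSeq (GRCm38.p6) for 7 of the 10 genes, and none was used for Egr1, Hbegf and Ier2. The windows of 4 genes are shown because their genes stand for the patterns found below, with Nr4a1 and Atf3 higher in C3H on both diets, Junb lower on Western diet in both strains, and Fos differing in direction. Capitals mark the half-site TGACG of the cAMP response element, which CREB and ATF proteins bind, on either strand (CGTCA on the strand shown).
Nr4a1: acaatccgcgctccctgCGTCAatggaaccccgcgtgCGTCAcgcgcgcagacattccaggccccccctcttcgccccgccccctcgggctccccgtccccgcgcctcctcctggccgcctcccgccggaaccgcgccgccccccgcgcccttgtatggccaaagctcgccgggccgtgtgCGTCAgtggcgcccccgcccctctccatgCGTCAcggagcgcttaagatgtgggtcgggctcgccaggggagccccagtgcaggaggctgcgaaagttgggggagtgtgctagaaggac
Atf3: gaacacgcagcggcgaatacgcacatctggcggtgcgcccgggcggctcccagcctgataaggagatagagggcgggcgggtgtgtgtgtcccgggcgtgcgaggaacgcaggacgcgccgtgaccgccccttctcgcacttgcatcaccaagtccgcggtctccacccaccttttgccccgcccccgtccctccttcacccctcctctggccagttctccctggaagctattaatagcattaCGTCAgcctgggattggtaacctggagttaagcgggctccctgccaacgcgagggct
Junb: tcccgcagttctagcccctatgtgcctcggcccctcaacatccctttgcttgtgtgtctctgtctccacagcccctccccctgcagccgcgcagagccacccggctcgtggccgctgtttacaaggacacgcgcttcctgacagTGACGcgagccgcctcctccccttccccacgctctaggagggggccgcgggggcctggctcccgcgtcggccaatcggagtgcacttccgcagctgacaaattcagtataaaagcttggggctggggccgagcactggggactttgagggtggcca
Fos: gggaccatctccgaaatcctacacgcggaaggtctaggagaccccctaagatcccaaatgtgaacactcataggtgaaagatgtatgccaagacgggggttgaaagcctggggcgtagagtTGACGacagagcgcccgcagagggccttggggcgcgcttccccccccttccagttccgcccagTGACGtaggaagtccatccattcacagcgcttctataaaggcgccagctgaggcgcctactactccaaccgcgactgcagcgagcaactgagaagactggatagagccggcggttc
The Nr4a1 window lies at chr15:101266596-101266895 (plus strand, at a start inside the gene's annotated span), the Atf3 window at chr1:191183284-191183583 (minus strand), the Junb window at chr8:84978699-84978998 (minus strand) and the Fos window at chr12:85473640-85473939 (plus strand). Half-sites numbered 4 in the Nr4a1 window, 1 in that of Atf3, 1 in that of Junb and 2 in that of Fos. Searched on both strands, TGACG was found in 5 of the 7 windows (Fosb besides the 4 shown) and in 20.8% of 32851 windows of the same length. The full element TGACGTCA, which contains the half-site on each strand, was in 0 of the 7 windows and 1.79% of all. The AP-1 site TGACTCA was in 0 of 7 and 5.2% of all, the CArG box of the serum response element in 0 of 7 and 1.63%, and the Egr1 site GCGTGGGCG in 0 of 7 and 0.612%. These matches describe letters within the windows only.

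Most of the genes were higher in the C3H aorta than in the C57BL/6 aorta, and most were lower on Western diet than on chow. Among the 11 probe sets that exceeded the floor on 3 or more arrays, 8 had their highest signal on the C3H chow array, where 29.8% of 11719 such probe sets had theirs. Their lowest signal was on the C57BL/6 Western array for 9 of the 11, against 20.3% of all. When arrays were set to equal medians instead of being quantile normalized, the counts were 7 and 9, against 22.1% and 16.7% of all.

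**Figure D1:**
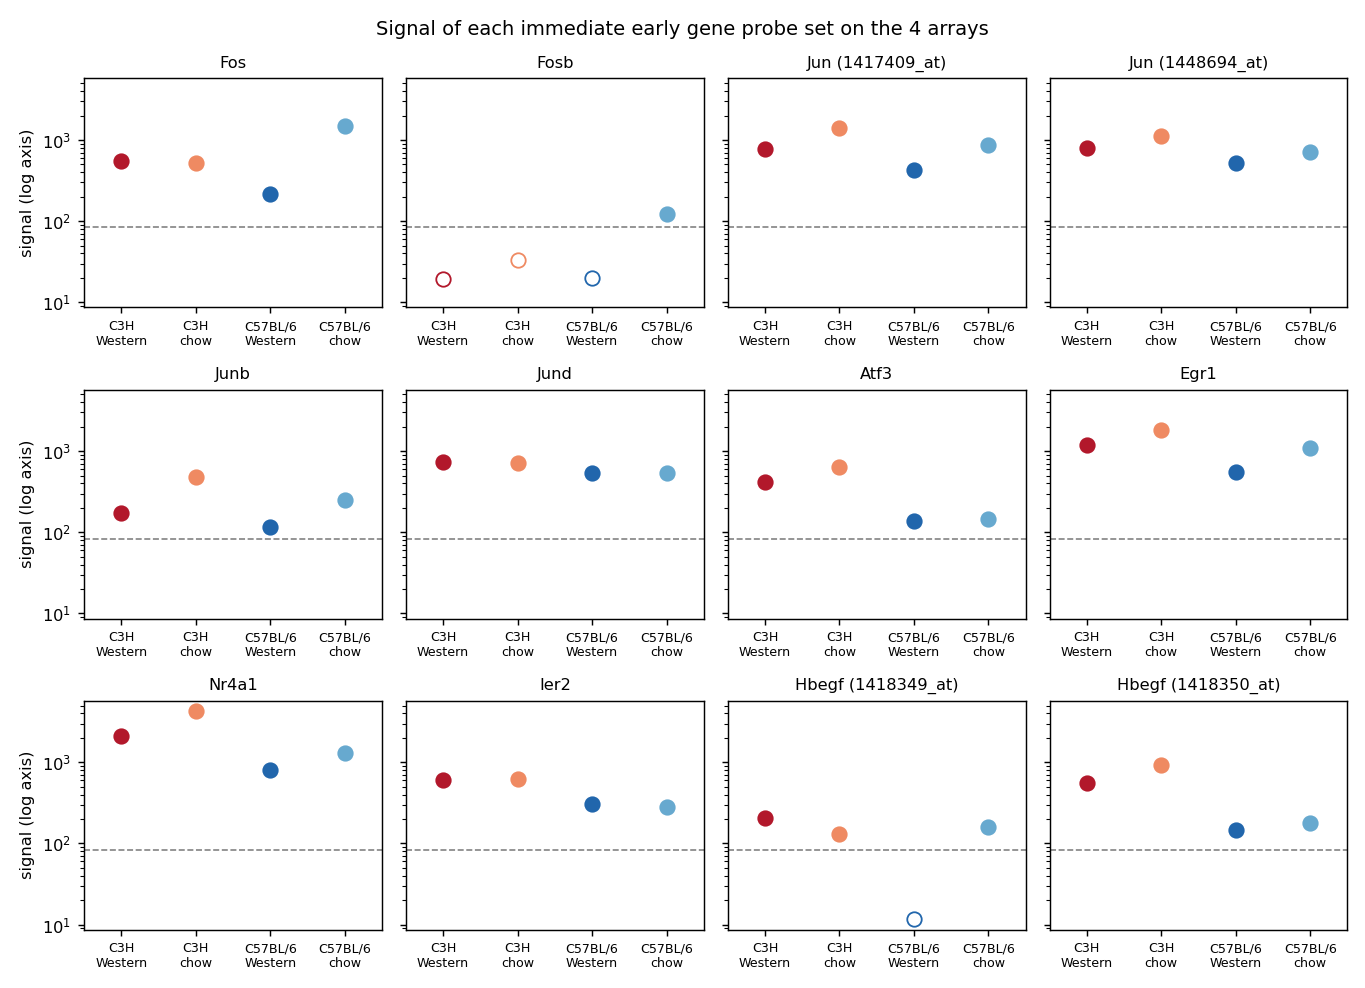
Quantile normalized signal (log axis) of each of the 12 probe sets on the 4 arrays, 1 point per array with no error bar since each group has 1 array. The dashed line is the floor of 83.6 and open points lie under it. C3H points sit above C57BL/6 points of the same diet for Jun, Junb, Jund, Atf3, Egr1, Nr4a1, Ier2 and 1 Hbegf set, while Fos is highest on C57BL/6 chow at 1487.

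Hbegf encodes heparin-binding EGF-like growth factor, a ligand of the EGF receptor that is shed from the cell surface and drives smooth muscle growth. Its brighter probe set (1418350_at) had signals of 551 on C3H Western and 917 on C3H chow, against 146 on C57BL/6 Western and 178 on C57BL/6 chow. Both C3H arrays were above both C57BL/6 arrays. The difference between strains was 3.78-fold on Western diet and 5.16-fold on chow, and 0.16% and 0.14% of measured probe sets were at least as high. The other probe set (1418349_at) had 205 on C3H Western and 129.9 on C3H chow, against 11.6 on C57BL/6 Western and 158 on C57BL/6 chow. By this set Hbegf in C3H was higher on Western diet, by at least 2.46-fold since the C57BL/6 value lies under the floor, while it was 1.21-fold lower on chow. The probe sets thus pointed the same way on Western diet and opposite ways on chow.

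Fos encodes the AP-1 subunit that has no stable pair with itself and binds DNA with a Jun protein. Its signals were 553 on C3H Western and 519 on C3H chow, against 216 on C57BL/6 Western and 1487 on C57BL/6 chow. The C57BL/6 arrays were thus the lowest and the highest of the 4, with the C3H arrays close together between them. With Western diet Fos was 1.06-fold higher in C3H and 6.89-fold lower in C57BL/6, a difference that 0.018% of 10914 measured probe sets matched or went below. In C3H it was 2.56-fold higher than in C57BL/6 on Western diet and 2.86-fold lower on chow. Fosb, its close relative, had 19.2 on C3H Western, 33.2 on C3H chow and 19.8 on C57BL/6 Western, all under the floor, and 122 on C57BL/6 chow. Like Fos, Fosb was highest on C57BL/6 chow, at least 1.46-fold above each of the other arrays.

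Jun, Junb and Jund encode the partners of Fos, with Jun the strongest activator, Junb often a brake on Jun, and Jund expressed steadily in resting cells. Jun by probe set 1417409_at had 776 on C3H Western and 1419 on C3H chow, against 428 on C57BL/6 Western and 865 on C57BL/6 chow. Its second set (1448694_at) had 808 and 1109 on the same C3H arrays, against 519 and 713 on the C57BL/6 arrays. Both sets were higher in C3H on each diet (by 1.81-fold and 1.56-fold on Western diet and by 1.64-fold and 1.56-fold on chow) and lower on Western diet in each strain (by 1.83-fold and 1.37-fold in C3H and by 2.02-fold and 1.37-fold in C57BL/6). Junb had 173 on C3H Western and 476 on C3H chow, against 115 on C57BL/6 Western and 249.8 on C57BL/6 chow. Each Western array lay below the chow array of its strain, by 2.75-fold in C3H and 2.17-fold in C57BL/6. Between strains Junb was 1.51-fold higher in C3H on Western diet and 1.91-fold higher on chow. Jund varied least of the 12 probe sets, with 731 on C3H Western and 712 on C3H chow, against 533 on each C57BL/6 array. Its highest signal was 1.37-fold its lowest, and the diet differences were log2 0.04 in C3H and 0.00 in C57BL/6.

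Atf3, a stress-induced member of the ATF family that can repress its targets, had 418 on C3H Western and 633 on C3H chow, against 136 on C57BL/6 Western and 146 on C57BL/6 chow. Strain separated these arrays and diet did so less. The C3H signal was 3.07-fold higher on Western diet and 4.35-fold higher on chow, and 0.42% and 0.29% of measured probe sets were at least as high. On Western diet Atf3 was 1.52-fold lower in C3H and 1.07-fold lower in C57BL/6.

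Egr1 drives growth factor and tissue factor genes in injured vessels. It had 1181 on C3H Western and 1839 on C3H chow, against 549.8 on C57BL/6 Western and 1092 on C57BL/6 chow. It was 2.15-fold higher in C3H on Western diet and 1.68-fold higher on chow, and on Western diet it was 1.56-fold lower in C3H and 1.99-fold lower in C57BL/6. Egr1 thus combined a strain and a diet difference of like size, and C3H Western and C57BL/6 chow were close.

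Nr4a1, which restrains smooth muscle growth and macrophage inflammation in mouse vessels, had 2107 on C3H Western and 4274 on C3H chow, against 809.9 on C57BL/6 Western and 1316 on C57BL/6 chow. Every C3H signal exceeded every C57BL/6 signal. The gene was 2.60-fold higher in C3H on Western diet and 3.25-fold higher on chow, and with Western diet it was 2.03-fold lower in C3H and 1.63-fold lower in C57BL/6. Ier2, a growth-factor-induced nuclear protein gene, had 601 on C3H Western and 625 on C3H chow, against 307 on C57BL/6 Western and 281 on C57BL/6 chow. Ier2 was 1.96-fold higher in C3H on Western diet and 2.22-fold higher on chow, and its diet differences were log2 -0.06 in C3H and 0.13 in C57BL/6.

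**Figure D2:**
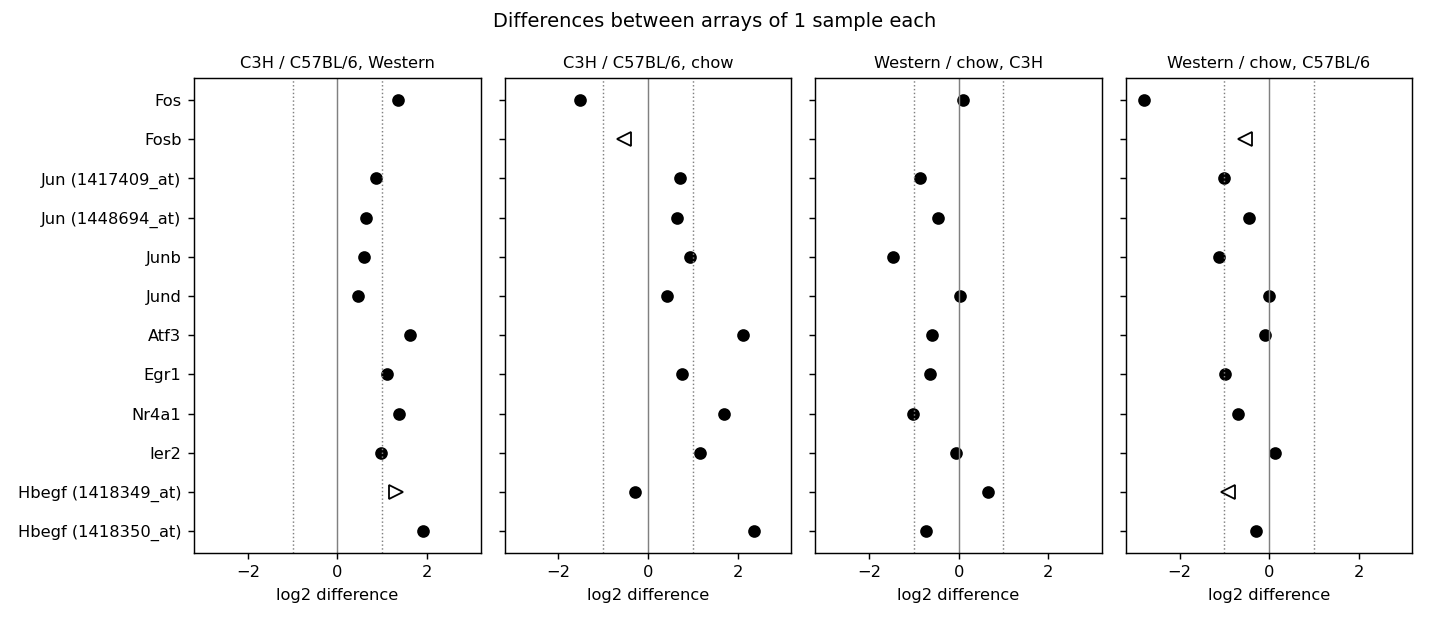
Log2 difference of each probe set in the 4 comparisons, with dotted lines at 2-fold. Filled points are measured on both arrays, and open triangles are bounds, taken with signals under the floor set to it. On Western diet all 10 measured probe sets are to the right of 0 (higher in C3H), while on chow Fos at -1.52 and 1 Hbegf set at -0.28 lie to the left.

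With 2-fold as the threshold and both arrays required to exceed the floor, 5 of 10 member probe sets were higher in C3H on Western diet (Fos, Atf3, Egr1, Nr4a1 and Hbegf 1418350_at), where 4.17% of all 10956 measured probe sets were, and 0 were lower, where 4.24% were. On chow 4 of 11 were higher in C3H (Atf3, Nr4a1, Ier2 and Hbegf 1418350_at), against 8.2% of 10522, and 1 was lower (Fos), against 8.94%. The median log2 difference of the measured members was 1.04 on Western diet and 0.75 on chow, beside 0.01 and 0.03 over all measured probe sets. Atf3, Nr4a1 and Hbegf 1418350_at were at least 2-fold higher on both diets, as were 0.664% of the 8740 probe sets measured on every array, and 0 members were lower on both, against 0.927%. Probe sets of 1 gene differed among themselves within a comparison with a pooled SD of log2 0.52 on Western diet and 0.62 on chow. This SD holds no variation between animals. The strain differences of Jund on both diets and that of Hbegf 1418349_at on chow (log2 -0.28) were smaller than it.

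In the additive limma fit, which takes strain and diet as terms and the interaction as its only residual, 57 of 14915 probe sets (0.382%) were called for strain at an adjusted p of 0.05. Nr4a1 rose in C3H by a fitted log2 1.54 ± 0.30 (SE, 2 arrays against 2, higher in C3H on both diets) with a limma adjusted p of 0.0246, and Hbegf 1418350_at rose by 2.14 ± 0.44 with a limma adjusted p of 0.0353. The other 9 fitted member probe sets did not pass for strain. Nearest to the threshold was Atf3, with 1.87 ± 0.49 and a limma adjusted p of 0.215, and Egr1 had 0.93 ± 0.31 and 0.522. Fos, whose strain difference turned with diet, had -0.08 ± 0.49. Neither call held in limma without a mean trend in the variance prior (adjusted p of 0.896 for Nr4a1 and 0.718 for Hbegf, and 0 of 14915 probe sets called, with 804 at an unadjusted p under 0.05), nor with strain as the only term (0.409 and 0.145). Two-sided and exact, a permutation of 2 against 2 arrays gives no p smaller than 0.333.

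On Western diet against chow, 2 of 11 member probe sets were at least 2-fold lower in C3H (Junb and Nr4a1), where 5.95% of 10681 were, and 0 were higher, where 6.4% were. In C57BL/6 3 of 10 were at least 2-fold lower (Fos, Junb and Jun 1417409_at), against 3.97% of 10914, and 0 were higher, against 3.79%. Member medians were log2 -0.60 in C3H and -0.58 in C57BL/6, beside 0.00 over all measured probe sets in each strain. Junb was the member at least 2-fold lower in both strains, as were 0.217% of the 8740 probe sets measured on every array, and 0 members were higher in both, against 0.263%. Probe sets of 1 gene had a pooled SD of log2 0.58 in C3H and 0.51 in C57BL/6. Smaller than this were the responses of Fos, Jund, Ier2 and Jun 1448694_at in C3H, and of Jund, Ier2, Atf3, Jun 1448694_at and Hbegf 1418350_at in C57BL/6. No probe set of 14915 passed limma for diet (0%). At an unadjusted limma p under 0.05 were 367 (2.46%), among them 5 of the 11 members fitted. Without a mean trend 0 of the 11 were under it, where 4.22% of all probe sets were. With diet as the only term 2 were, against 1.72% of all. Fitted diet differences of the 5 members in the main fit were log2 -1.35 ± 0.49 for Fos, -1.29 ± 0.56 for Junb, -0.94 ± 0.32 for Jun 1417409_at, -0.86 ± 0.30 for Nr4a1 and -0.81 ± 0.31 for Egr1 (SE, 2 arrays against 2). For Fos the fitted value lies between 0.09 in C3H and -2.78 in C57BL/6, and neither strain showed it. The part of the neutrophil and monocyte markers, whose sums given above were higher on Western diet in both strains, was not tested. Each diet comparison shares an array with each strain comparison, so the differences of diet and strain are not independent of each other.

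**Figure D3:**
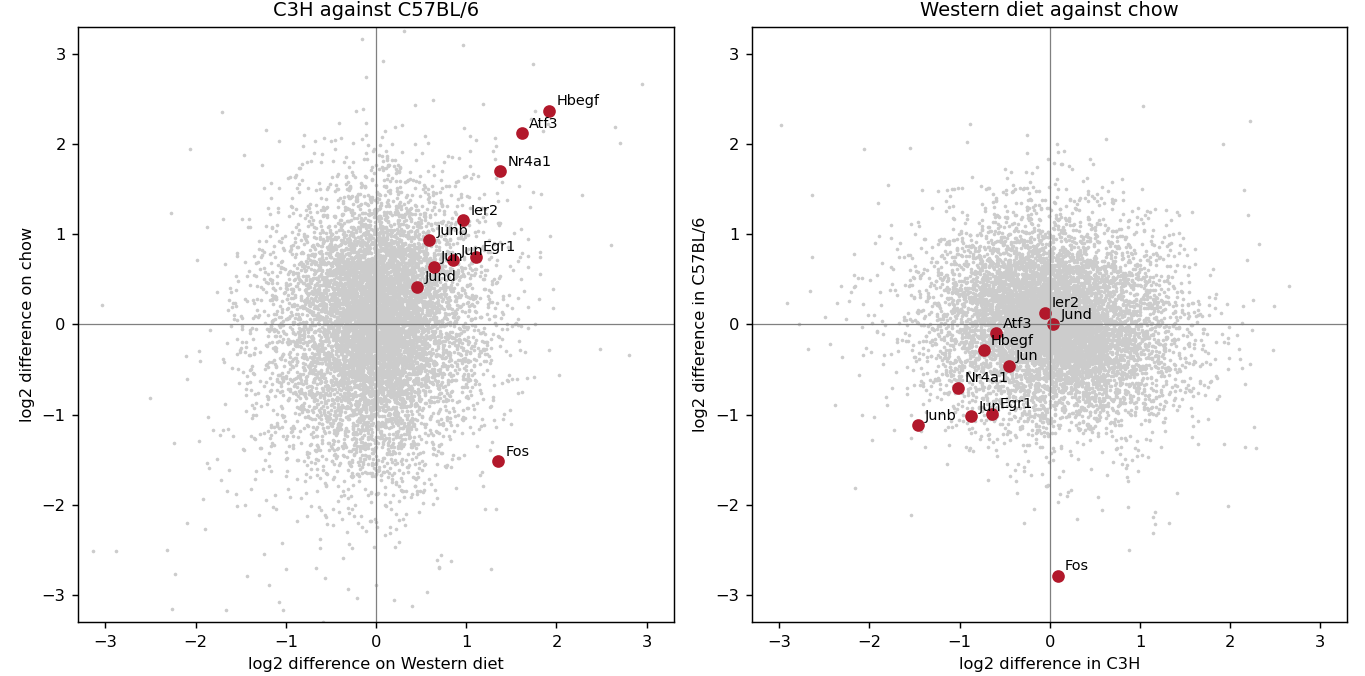
Left, log2 difference of C3H against C57BL/6 on Western diet (x) and on chow (y); right, log2 difference of Western diet against chow in C3H (x) and in C57BL/6 (y). Red points are members above the floor on all arrays and grey points are all 8740 such probe sets, of which 9 on the left and 3 on the right lie outside the axes. Hbegf, Atf3 and Nr4a1 stand toward the upper right on the left panel, and Fos stands alone at the lower edge of the right panel, at -2.78 in C57BL/6.

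Other genes of these pathways were read from lists of their own, with 1 probe set per gene. Among relatives of the AP-1, Egr and Nr4a proteins, 1 of 10 measured was at least 2-fold higher in C3H on Western diet and 2 of 10 on chow, and 0 were lower on either. The gene higher on both was Atf5, a stress-response ATF, with 606 and 614 on C3H Western and chow, against 295 and 145 on C57BL/6 Western and chow (limma adjusted p = 0.3 for strain). With Western diet 0 of 12 relatives differed 2-fold in C3H, and 1 of 8 was higher in C57BL/6 (Atf5). Of 13 measured upstream kinases and partners of serum response factor, 1 was higher and 1 lower in C3H on Western diet, and 0 were higher and 2 lower on chow. With Western diet 2 of these 13 were higher and 1 lower in C3H, and 0 differed 2-fold in C57BL/6. Serum response factor itself (Srf), which binds the CArG box, was lower in C3H on both diets by 1 probe set, with 144 and 129 on C3H Western and chow against 309 and 283 on C57BL/6 Western and chow. Its other set, above the floor on 2 arrays, had 170.4 and 67.1 against 138 and 23.7, so the sets disagree in direction.

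Further immediate early and feedback genes followed the strain difference in part. On Western diet 3 of 31 measured were higher in C3H by 2-fold or more and 1 lower (median log2 0.29, beside 0.01 over all), and on chow 7 of 28 were higher and 0 lower (0.69, beside 0.03). Klf2, the flow-induced factor of endothelium, rose in C3H with 2231 and 2417 on C3H Western and chow, against 667 and 876 on C57BL/6 Western and chow (log2 1.74 and 1.46, limma adjusted p = 0.0181, which also does not hold without a mean trend). Klf4, a regulator of smooth muscle and endothelial state, had 422 and 646 against 206 and 291 on the same arrays, and its other set was log2 0.75 and 0.78 higher. Klf4 did not pass for strain (limma adjusted p = 0.727). Its other set differed with Western diet by log2 -1.39 in C3H and -1.35 in C57BL/6, and its brighter set by -0.61 and -0.50. With Western diet 1 of 29 was 2-fold higher and 9 lower in C3H, and 0 of 29 were higher and 3 lower in C57BL/6, beside the shares of all probe sets given above. Btg2, an antiproliferative gene, and Ccn1, a matricellular growth regulator, were lower in both strains. Btg2 had 1210.2 on C3H Western and 2435 on C3H chow, and 728 on C57BL/6 Western and 1515 on C57BL/6 chow. Ccn1 had 819 on C3H Western and 1769 on C3H chow, and 464 on C57BL/6 Western and 1171 on C57BL/6 chow.

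HB-EGF partners and AP-1 or Egr1 targets had medians nearer 0 than the 10 genes. Of the EGF receptor family, its ligands and shedding proteases, 0 of 9 measured differed 2-fold between strains on Western diet, and on chow 0 of 7 were higher and 2 lower in C3H, namely the protease gene Adam9 and Cd9, a tetraspanin that binds membrane-bound HB-EGF. With Western diet 1 of 9 was 2-fold higher in C3H (Cd9) and 0 were lower, and 0 of 7 differed 2-fold in C57BL/6. Egfr, the receptor, had 257 and 365 on C3H Western and chow, against 339 and 339.6 on C57BL/6 Western and chow by its brightest probe set. Its 4 other sets were above the floor on 1 or 2 arrays each and did not share a direction on Western diet. On chow these 4 sets read lower in C3H (log2 -1.96, -3.22, -4.23 and -1.57), opposite to the brightest set. Each of their C3H chow values lay under the floor. Genes known as AP-1 or Egr1 targets had 1 of 15 higher and 1 lower in C3H on Western diet and 2 of 12 higher and 2 lower on chow, with medians of log2 0.33 and 0.13. Target medians for diet were 0.03 in C3H (2 of 14 at least 2-fold higher, 1 lower) and -0.36 in C57BL/6 (0 of 13 higher, 2 lower). No gene of these 2 lists, of the relatives or of the upstream kinases passed limma for strain or diet.

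**Figure D4:**
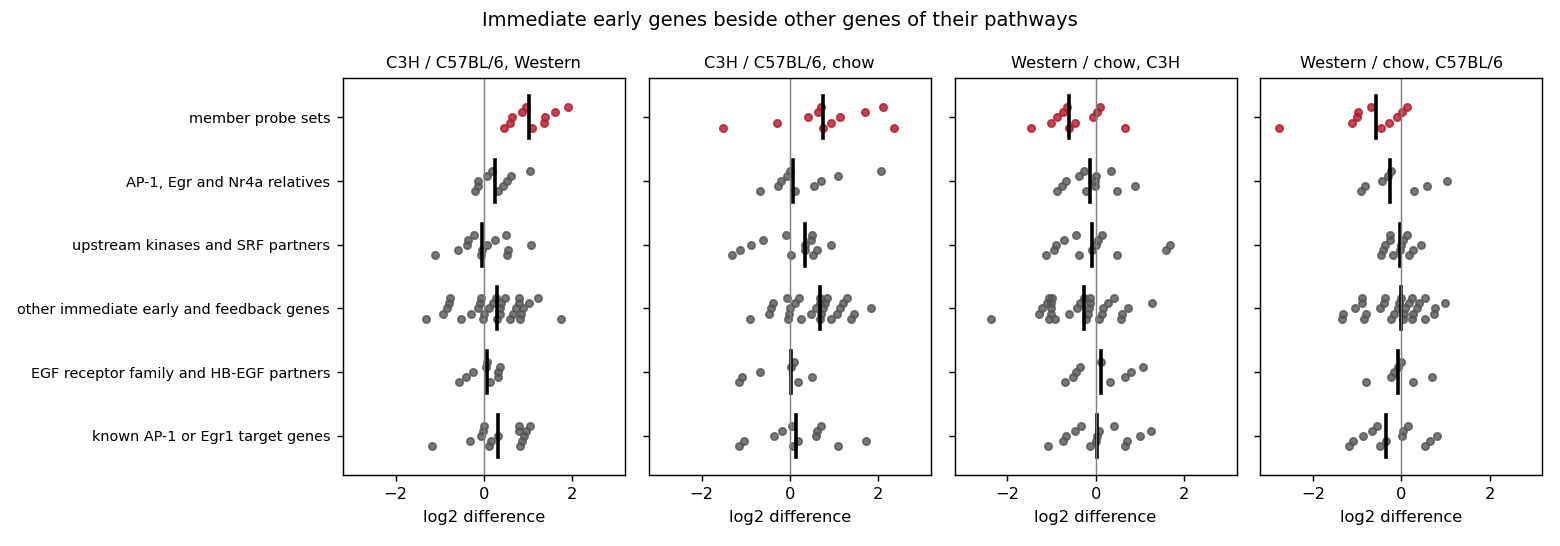
Log2 differences of the member probe sets (red) and of the 5 lists of related genes (grey, 1 probe set per gene) in the 4 comparisons, for genes above the floor on both arrays, with a black bar at each median. The member medians are 1.04 (Western) and 0.75 (chow) for strain and -0.60 (C3H) and -0.58 (C57BL/6) for diet, and the medians of the other lists lie nearer 0 in all comparisons, with 0.69 for further immediate early genes on chow the closest.

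The mean profile of the 10 genes, centred over the 4 arrays, was log2 0.12 on C3H Western, 0.73 on C3H chow, -0.90 on C57BL/6 Western and 0.05 on C57BL/6 chow. Fosb entered this mean with its signals as they stand. Those of 19.2 on C3H Western, 33.2 on C3H chow and 19.8 on C57BL/6 Western lie under the floor. The profile and its nearest genes thus rest in part on values under the floor, and a profile without Fosb was not computed. The 3 genes nearest to the profile by Euclidean distance, among 5637 other genes above the floor on all arrays, were Pcolce (0.11), Inpp5j (0.12) and Rreb1 (0.16). With 4 arrays as the only points, many profiles can lie this close by their order alone.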

How the data were processed

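Aortic RNA from 4 groups of mice was measured on 1 array each. Per the labels' protocols, Trizol was used to extract total RNA, of which 8 ug gave biotinylated cRNA for Affymetrix arrays of 1 colour. The authors deposited linear intensities for 22690 probe sets, scaled to a nearly equal trimmed mean (250.11 to 250.12 without the top and bottom 2%). The software behind them is not stated in these sources. After 64 control probe sets were left out, log2 intensities were quantile normalized (limma 3.58.1, R 4.3.3). Folds are between normalized signals, counted at 2-fold above a floor at the 40th percentile (83.6), with no test. The fit used lmFit and eBayes with a mean trend on the 14915 probe sets that exceeded the floor on 2 or more arrays, with Benjamini-Hochberg adjustment over all (prior of 17.3 degrees of freedom beside 1 residual). Its only residual is the interaction of strain and diet, so its p-values measure no spread between replicate arrays or animals. Gene names came from the platform annotation (20380 probe sets name 1 gene, 691 several, 1555 are unnamed here). A listed gene is represented by its brightest probe set. Listed genes were named where they differ at least 2-fold the same way in both strain or both diet comparisons, up to 3 each. Egfr, Adam9, Cd9 and the genes under other observations were named outside this rule. Members, lists and tests were chosen with earlier results of these data known. Alternatives were cyclic loess, the deposited values, equal medians, no floor or one at the 25th or 60th percentile, 1.5-fold and 3-fold thresholds, raised dim values, 1 probe set per gene, no filter, no mean trend and 1 factor at a time. The rest ran in Python 3.11.15 with matplotlib 3.10.9, scipy 1.17.1, pandas 2.3.3 and numpy 2.4.6.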

Additional observations from a re-analysis of the deposited data

Results flagged for a closer look

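Response to Western diet pointed in opposite directions in the strains for 3 member probe sets. For Fos the C3H response minus the C57BL/6 response was log2 2.87, from 0.09 in C3H and -2.78 in C57BL/6. For Hbegf 1418349_at it was at least log2 1.58, from 0.66 in C3H and -0.92 or lower in C57BL/6, where the Western value is under the floor, while the brighter Hbegf set was lower in both strains. For Ier2 it was log2 -0.19, from -0.06 in C3H and 0.13 in C57BL/6, and with equal medians both Ier2 responses were above 0 (0.15 in C3H and 0.20 in C57BL/6). The C3H response of Fos is of the same small size. None of these differences of responses was tested, because the 4 arrays hold no replicate.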

How the results depend on the processing

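No paired analysis was possible because each group has 1 array, and for the same reason no replicate could be left out. Normalization by deposited values, equal medians or cyclic loess moved each of the 42 member differences measured on both arrays by log2 -0.20 to 0.23 and turned none of at least 2-fold. At 1.5-fold in place of 2-fold, 9 of 10 members were higher in C3H on Western diet (13.5% of all probe sets were) and 8 of 11 on chow (21.1%), and with Western diet 6 of 11 were lower (17.1%) and 1 higher (17.5%) in C3H and 5 of 10 were lower in C57BL/6 (14.1%). At 3-fold, 2 were higher in C3H on Western diet (0.465% of all) and 0 lower on chow (2.3%), and with Western diet 0 were lower in C3H (0.88%) and 1 in C57BL/6 (0.476%). A floor at the 60th percentile gave 3 of 7 higher in C3H on Western diet (2.29% of all). On chow 2 of 12 were lower with a floor at the 25th percentile (13.4% of all) or with none (23%), a share near that of all, and with no floor 5 of 12 were lower with diet in C57BL/6 (19.2%). With equal medians 1 of 11 was lower with diet in C3H (4.26% of all), and over all probe sets that setting gave 865 higher and 455 lower there, in place of 684 and 635, and a median of log2 0.11. On chow it gave 646 higher and 1053 lower in C3H, in place of 863 and 941. The additive strain fit called 0 members with 1 probe set per gene (adjusted p of 0.0602 for Nr4a1 and 0.0536 for Hbegf, 27 of 8889 probe sets called), 0 without a mean trend and 0 with strain alone (30 of 14915 called). It called 2 with deposited values (56 of 14913 probe sets called), equal medians (57 of 14912), cyclic loess (40 of 14597) or raised dim values (80 of 14915). Some of these calls were near the threshold. The limma adjusted p was 0.0483 for Nr4a1 and 0.0485 for Hbegf 1418350_at with cyclic loess, and 0.0407 and 0.0463 with equal medians. With no filter the fit called 3, where Atf3 had 0.0498 and 119 of 22626 probe sets passed. The cause of these shifts was not tested. Signal over background limits Fosb, above the floor on 1 array, and Hbegf 1418349_at, above it on 3.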

Other observations

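The genes in this paragraph were chosen from the lists after their values were seen. Dusp1, the phosphatase that switches off MAP kinases and is itself an immediate early gene, had signals of 3559 on C3H Western, 6758 on C3H chow, 1508 on C57BL/6 Western and 3862 on C57BL/6 chow, so that C3H chow was highest and C57BL/6 Western lowest, as for most of the 10 genes. Egr3, a relative of Egr1, had 85.0 and 102 on C3H Western and chow, against 15.3 and 101 on C57BL/6 Western and chow. Its C57BL/6 Western value lies under the floor, and the C3H Western value barely above it. The angiogenic factor gene Vegfa had 345 and 550.1 on C3H Western and chow, against 63.2 and 165 on C57BL/6 Western and chow by 1 probe set. Its other set had 239 and 444 against 226 and 80.7 on the same arrays, with the 63.2 and the 80.7 under the floor, so both sets were higher in C3H on chow and they differ in size on Western diet.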
